A study of Homo sapiens with 8 samples.

Results

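SUM159 is a long-established human cell line from a triple-negative breast carcinoma. The comparison described here set input RNA of cells treated for 12 h with H3B-8800 against input RNA of cells treated for 12 h with DMSO, the vehicle, with 2 biological replicates in each group. These 4 libraries were chosen by their labels from the 8 libraries of the series, the other 4 of which hold RNA of the same cells recovered with the double-stranded RNA antibody J2. Polyadenylated RNA was sequenced with a stranded kit, and reads were listed for each intron. No line beside the parental one and no genetic change is named in the labels.

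H3B-8800 is a splicing modulator aimed at SF3b, the part of the U2 snRNP that recognises the branch point of an intron. An intron whose branch point is not recognised may stay in the transcript (intron retention) or be spliced from another site, so that an exon is skipped. SF3b modulators are known to act unequally on introns, and the sequence around the branch point and the polypyrimidine tract, the run of C and T before the 3′ splice site, is known to affect how strongly an intron depends on SF3b.

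For each intron, the reads lying inside it (intronic reads) were set against the reads spliced across it (spliced reads), and the intronic share is the percentage of intronic reads among both. An intron was tested if it averaged at least 20 reads over the 4 libraries, and its log2 ratio of intronic reads + 1 to spliced reads + 1 was compared with limma at an adjusted p of 0.05. An intron is said to have risen where this ratio was higher with H3B-8800 and both drug libraries also held more depth-scaled intronic reads than both vehicle libraries, and to have fallen where the ratio was lower. In bulk RNA, a full loss of splicing in some cells and a partial loss in all cells cannot be told apart, nor can fewer cells and less RNA per cell. The drug libraries held 12679980 and 13562705 intronic and spliced reads in listed introns, and the vehicle libraries held 12612577 and 13548343. The intronic share of the whole library was 13.0% and 10.3% with H3B-8800, against 3.81% and 3.83% with DMSO. Without 63 introns that differed over 5-fold between the 2 drug libraries, the shares were 10.1% and 9.99% with H3B-8800, against 3.71% and 3.68% with DMSO. None of the introns named below is among the 63. Of the mesenchymal markers expected in SUM159, 6 of 7 exceeded 1 spliced read per intron in every 1000000 reads of depth (RPM), ZEB1 being the exception. Of 5 markers listed as luminal epithelial KRT18 alone did. GATA3 lay between 0.534 and 0.583 RPM in the 4 libraries, and EPCAM, CDH1 and ESR1 were at or near 0. CD68 among immune markers and COL1A1 among stromal ones also exceeded 1 RPM, with CD3E, PECAM1 and VWF at or near 0.

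The introns of EIF4A1 and PPP1R37 are shown in sequence because the first gene had 1 intron that rose and the second a run of them. The lines below give the last 45 bases of the introns whose sequence could be read from GENCODE 29 transcripts on GRCh38, written 5′ to 3′ on the sense strand, with capitals marking the 20 bases that end 4 bases before the 3′ end, where the polypyrimidine tract usually lies. EIF4A1 encodes a DEAD-box RNA helicase of translation initiation, and PPP1R37 a regulatory subunit of protein phosphatase 1.
EIF4A1 intron 2: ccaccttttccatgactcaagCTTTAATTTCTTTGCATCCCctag
EIF4A1 intron 3: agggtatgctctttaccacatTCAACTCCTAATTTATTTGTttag
EIF4A1 intron 5: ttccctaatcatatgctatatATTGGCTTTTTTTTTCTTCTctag
EIF4A1 intron 6: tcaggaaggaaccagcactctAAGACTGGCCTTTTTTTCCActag
EIF4A1 intron 8: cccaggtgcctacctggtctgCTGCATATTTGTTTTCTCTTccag
EIF4A1 intron 10: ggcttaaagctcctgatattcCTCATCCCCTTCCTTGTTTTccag
PPP1R37 intron 6: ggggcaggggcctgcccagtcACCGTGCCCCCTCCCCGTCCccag
PPP1R37 intron 7: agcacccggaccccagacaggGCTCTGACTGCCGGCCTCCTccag
PPP1R37 intron 8: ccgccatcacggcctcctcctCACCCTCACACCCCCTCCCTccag
PPP1R37 intron 10: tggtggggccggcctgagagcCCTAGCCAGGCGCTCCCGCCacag
PPP1R37 intron 11: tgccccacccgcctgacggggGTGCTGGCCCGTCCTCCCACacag
PPP1R37 intron 12: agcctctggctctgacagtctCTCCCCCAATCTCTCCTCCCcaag
All 6 PPP1R37 introns shown rose with H3B-8800, and of the 6 EIF4A1 introns shown intron 8 alone did. The C and T share of the capitals was 80.0% in EIF4A1 intron 8 and also 80.0% in EIF4A1 intron 2, whose intronic share stayed at 0.0222% with H3B-8800 and 0% with DMSO. Among the PPP1R37 introns shown it ran between 65.0% in intron 10 and 90.0% in intron 12. No PPP1R37 intron that did not rise had a sequence to set beside these.

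In EIF4A1, intron 8 (chr17:7577707-7577826, 120 bases) held 1369 and 1543 intronic reads in the drug libraries, against 11 and 11 in the vehicle libraries. Its spliced reads were 922 and 1312 with H3B-8800, against 417 and 381 with DMSO. Retained and spliced reads were thus both more numerous with the drug, and the groups overlapped in neither. The intronic share averaged 56.9% ± 4.04 with H3B-8800 and 2.69% ± 0.167 with DMSO (SD, n = 2 each), and the log2 ratio of intronic to spliced reads rose by 5.46 (SE 0.30, adjusted p = 0.00015, limma over all 46054 introns tested). Against the other introns of the gene it stood 5.66 higher on the log2 scale (adjusted p = 4.8e-06, limma diffSplice). The other 8 tested introns of EIF4A1 had mean intronic shares of at most 2.27% with H3B-8800, and intron 1 fell, to 2.27% with H3B-8800 against 6.31% with DMSO (adjusted p = 0.01). Intron 8 overlaps an exon of an annotated EIF4A1 transcript that retains it and an exon of another annotated gene on the same strand, so its reads may belong in part to those transcripts, and spliced reads of EIF4A1 may be shared with processed copies of the gene.

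Of 46054 tested introns in 8249 genes, 18492 (40.2%) had a higher ratio with H3B-8800 and 1263 (2.74%) had a lower one. A share of these calls came without reads inside the intron: 2695 of the higher and 531 of the lower calls had no intronic read in any of the 4 libraries, and were called on spliced reads alone. More intronic reads in both drug libraries accompanied 12980 of the higher calls (28.2% of all introns), and these are the introns that rose. The median change was 1.30 on the log2 scale, and with each kind of read scaled by the median of ratios, which takes out such a common shift, 8905 introns were higher and 4318 lower.

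Intronic reads alone, in 10731 introns that averaged at least 10 of them, were higher with H3B-8800 in 6908 introns (64.4%) and lower in 737 (6.87%, edgeR), with a median change of 1.86 on the log2 scale. With TMM scaling these counts were 3847 and 2819. Spliced reads were higher with H3B-8800 in 7844 of 43341 introns (18.1%) and lower in 21173 (48.9%), with a median change of −0.49, and with TMM scaling they were higher in 14404 and lower in 13738. The ratio within 1 intron, and the comparison of introns within 1 gene, are not scaled by library depth. Where 1 of the 2 counts is 0, however, the ratio follows the other count, unscaled. No intronic read was seen in any of the 4 libraries in 11164 of the 46054 tested introns. The added condition on intronic reads for a rise does use depth.

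A switch, meaning mostly intronic reads with H3B-8800 and mostly spliced reads with DMSO, was found in 1004 introns (2.18% of those tested) of 738 genes. In these the intronic share was at least 50% in both drug libraries and under 10% in both vehicle libraries, and 5 introns met the same limits in the opposite direction. Unlike a rise, a switch did not require more intronic reads, so it may rest on a loss of spliced reads. TMEM120B intron 10 met the limits on 2 and 4 intronic reads with H3B-8800, against 4 and 4 with DMSO. Its spliced reads were 1 and 3 with H3B-8800, against 60 and 58 with DMSO. The 12 rising introns named next had the largest ratio change of 2688 that passed the naming conditions, 1 intron a gene. They overlap no other annotated exon, apart from transcripts that retain the introns of PPP1R37 and COPG1.

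Intron 3 of 11 of TMEM120B, a membrane protein gene (chr12:121748443-121750379), held 406 and 457 intronic reads with H3B-8800 and none in either vehicle library. Its spliced reads were 5 and 5 with H3B-8800, against 68 and 81 with DMSO. Nearly every read at this intron was thus intronic with the drug, at a mean share of 98.9%, and none was with the vehicle. Depth-scaled intronic reads were at least 299.8-fold higher with H3B-8800, taking 3 reads over the 2 vehicle libraries as the floor, and the log2 ratio rose by 12.40 (SE 0.56, adjusted p = 0.00014).

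The same pattern was seen in SYMPK, GOLGA5 and ULK1. SYMPK encodes symplekin, a scaffold of the mRNA 3′ end cleavage machinery, and its intron 17 of 26 (chr19:45825332-45826225) had an intronic share of 90.3% and 90.5% with H3B-8800, against 0% and 0% with DMSO. Its spliced reads fell to 32 and 35 with H3B-8800, against 126 and 149 with DMSO, and the log2 ratio rose by 10.31 (SE 0.56, adjusted p = 0.00015). Intron 3 of 12 of GOLGA5, a gene for a Golgi tethering protein (chr14:92806964-92809299), had 185 and 238 intronic reads with H3B-8800, against none with DMSO, at a mean share of 98.1%. Intron 12 of 27 of ULK1, the kinase that starts autophagy (chr12:131910801-131911941), had 117 and 109 intronic reads with H3B-8800, against none with DMSO, and 19 and 28 spliced reads with H3B-8800, against 150 and 142 with DMSO. The naming conditions asked for shares in the 2 drug libraries within a factor of 2 of each other and above both vehicle libraries. Agreement between libraries was thus set by the choice of these introns.

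USP1 encodes the deubiquitinase of FANCD2 and PCNA. Its intron 7 of 8 (chr1:62447512-62448464) had 126 and 134 intronic reads with H3B-8800, against 0 and 0 with DMSO. Intron 3 of 8 of UAP1L1 (chr9:137078678-137078975) had 84 and 84 with H3B-8800, against 0 and 0 with DMSO. Shorter introns showed it as well. Intron 19 of 29 of AP3D1, the delta subunit of the AP-3 adaptor complex (chr19:2115419-2115537, 119 bases), had 98 and 102 intronic reads with H3B-8800, against 1 and 0 with DMSO. In INF2, a formin that acts on actin, intron 3 of 22 (chr14:104703221-104703294, 74 bases) had 140 and 117 with H3B-8800, against 1 and 0 with DMSO. COPG1 encodes a coatomer subunit, and its intron 4 of 23 (chr3:129252695-129252875, 181 bases) had 118 and 146 with H3B-8800, against 0 and 2 with DMSO. Mean intronic shares with H3B-8800 were 68.3% in AP3D1, 62.3% in INF2 and 80.5% in COPG1, and all 3 were at most 0.422% with DMSO.

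A further 3 introns had the largest raw numbers of intronic reads of the 12 with the drug, not scaled by length. Intron 8 of 12 of PPP1R37 (chr19:45143634-45144853) had 981 and 1068 intronic reads with H3B-8800, against 9 and 3 with DMSO, a ratio of 178 in depth-scaled intronic reads (95% interval 102 to 345, counting error only). Intron 9 of 34 of PCNXL3 (chr11:65620430-65620830) had 745 and 789 intronic reads with H3B-8800, against 4 and 0 with DMSO. Intron 10 of 13 of LBR, the lamin B receptor (chr1:225406833-225410290), had 729 and 723 with H3B-8800, against 12 and 2 with DMSO. The LBR intron had few spliced reads in either group, 0 and 1 with H3B-8800 against 10 and 7 with DMSO, and its share with DMSO was already 54.5% and 22.2%. Leaving out any of the 4 libraries did not end the call of any of these 12 introns.

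**Figure D1:**
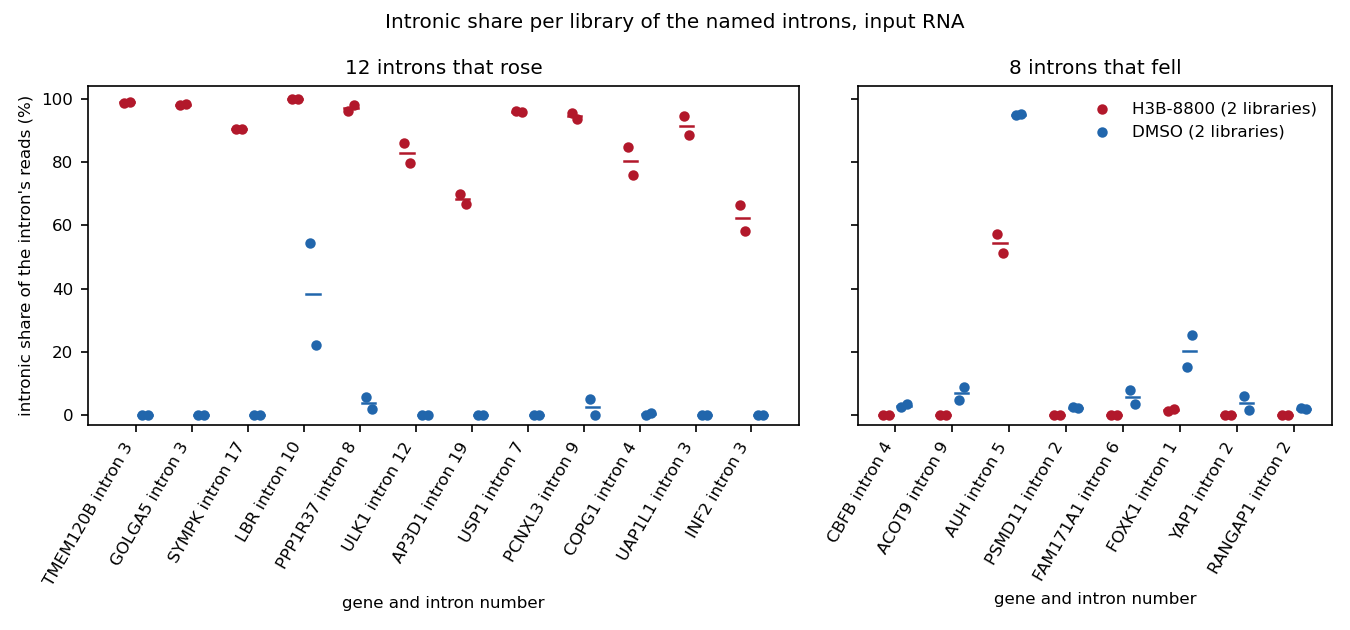
Intronic share (%) of each named intron in every input library, with H3B-8800 in red on the left of each pair and DMSO in blue on the right; points are the 2 libraries of a group and bars their mean. The 12 introns that rose had mean shares of 62.3% to 99.9% with H3B-8800, and among the 8 that fell, 6 had no intronic read with H3B-8800.

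Falls were smaller and rested on few intronic reads. Of the 1263 introns with a lower ratio, 531 had no intronic read, 480 had fewer depth-scaled intronic reads in both drug libraries than in both vehicle libraries, and 13 had more. The 8 falling introns named here had the largest change of 95 that passed the naming conditions. In 6 of them (in CBFB, ACOT9, PSMD11, FAM171A1, YAP1 and RANGAP1) both drug libraries had 0 intronic reads and the vehicle libraries had 1 to 9 each. RANGAP1 encodes the GTPase-activating protein of Ran, and its intron 2 of 15 (chr22:41274728-41280932) had 0 and 0 intronic reads with H3B-8800, against 9 and 9 with DMSO, at least 5.76-fold lower over both libraries. Its spliced reads were 421 and 466 with H3B-8800, against 391 and 409 with DMSO, and the log2 ratio fell by 3.47 (SE 0.29, adjusted p = 0.00032).

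CBFB encodes the partner subunit of the RUNX transcription factors. Its intron 4 of 5 (chr16:67066799-67082212) had 0 and 0 intronic reads with H3B-8800, against 5 and 8 with DMSO, while spliced reads were 444 and 519 with H3B-8800, against 181 and 222 with DMSO. YAP1, a Hippo pathway coactivator, had 0 and 0 intronic reads in intron 2 of 6 (chr11:102114395-102162455) with H3B-8800, against 4 and 1 with DMSO. Spliced reads were higher with the drug in 7 of the 8 introns (edgeR, adjusted p at most 2.1e-05), the exception being RANGAP1 (adjusted p = 0.062). In AUH and FOXK1 intronic reads remained in both groups. Intron 5 of 8 of AUH, a mitochondrial enzyme of leucine breakdown (chr9:91220993-91296020), had 89 and 90 intronic reads with H3B-8800, against 107 and 120 with DMSO, and 66 and 85 spliced reads with H3B-8800, against 6 and 6 with DMSO. Without either drug library or the first vehicle library the call of FAM171A1 was lost (adjusted p between 0.0538 and 0.0652), and YAP1 lost its call in edgeR with spliced reads as offset (adjusted p = 0.21).

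Introns of 1 gene often differed in their calls. Among 4359 genes with at least 4 tested introns (median 7), 928 (21.3%) had no intron that rose, 1023 (23.5%) had exactly 1, 2371 (54.4%) had several but not all, and 37 (0.849%) had all. Of 655 such genes that held a switch intron as defined above, 488 (74.5%) held exactly 1 and in none did every tested intron switch. Over all tested introns 2.18% switched, and of those in genes with at least 4 tested introns 29.1% rose. The counts per gene were not compared with what these shares alone would give. A test of the difference within genes called 3417 of 6484 genes (52.7%) unequal (limma diffSplice, F test). In the other genes no difference between introns was shown. At single introns, 4893 of 44289 (11%) changed more than the rest of their gene and 3737 (8.44%) less. Of those above the rest 4569 had risen. Of those below the rest 2978 were called in neither direction, 521 had fallen and 238 were called higher, of which 67 had risen.

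Neighbouring introns shared their outcome in part. The next listed intron rose in 47.3% of cases where an intron had risen and in 23.5% of cases where it had not, over 34237 neighbouring pairs of tested introns. At a distance of 5 introns the shares were 40.9% and 29.3%. Introns of a gene share its read number, whose part in these shares was not tested.

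**Figure D2:**
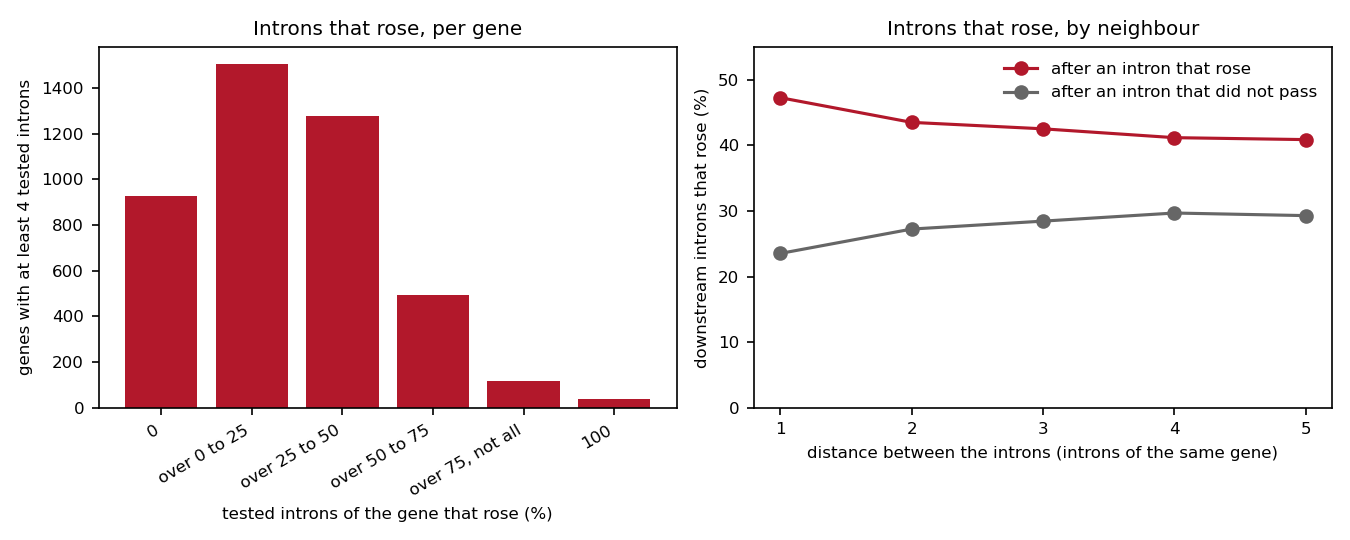
Left, the number of genes with at least 4 tested introns (y) by the percentage of their introns that rose (x), with 928 genes at 0 and 37 at 100. Right, the percentage of introns that rose (y) downstream of an intron that had risen (red) or had not (grey) by their distance in introns (x), from 47.3% and 23.5% at distance 1 to 40.9% and 29.3% at distance 5.

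In PPP1R37 the introns that rose formed 1 unbroken run. Introns 2 and 3 had no intronic read in any of the 4 libraries and 119 to 140 spliced reads with H3B-8800, against 127 to 142 with DMSO. All 9 introns from 4 to 12 rose, with mean intronic shares between 52.3% and 97.0% with H3B-8800 and between 0% and 14.0% with DMSO. Introns 1, 2 and 3 each lay below the rest of the gene on the log2 scale (−5.40 to −7.20), and introns 5, 7, 8 and 9 lay above it. Intron 1 overlaps exons of other transcripts on both strands, and its 13 and 4 intronic reads with H3B-8800, against 23 and 22 with DMSO, may hold reads of those. Its ratio change (−1.56, adjusted p = 0.11) passed the test without the first drug library (adjusted p = 0.0489).

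SP2, a gene for a transcription factor of the Sp family, had 4 rises among 6 introns, of unequal size. Its last intron, 6 of 6 (chr17:47925542-47927723), had 726 and 744 intronic reads with H3B-8800, against 10 and 6 with DMSO, and intron 5 had 157 and 146 with H3B-8800, against 4 and 10 with DMSO. Intron 2 rose on 14 and 5 intronic reads with H3B-8800, against 0 and 0 with DMSO, a mean share of 10.4% with the drug. Introns 3 and 4 stayed spliced, with mean shares of 0% and 2.06% with H3B-8800, against 1.06% and 0% with DMSO, although the small rise in intron 4 passed the test. The first intron fell, to 24 and 23 intronic reads with H3B-8800 against 57 and 89 with DMSO, and it too overlaps other exons. Its call was lost without the first drug library (adjusted p = 0.0607) or the second vehicle library (adjusted p = 0.0817).

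In other genes an intron that rose lay beside introns that did not. In SETD1B, a histone H3 lysine 4 methyltransferase gene, intron 14 of 17 (chr12:121825367-121827518) had 868 and 920 intronic reads with H3B-8800, against 5 and 4 with DMSO. The next upstream intron, 13, had 21 and 33 intronic reads with H3B-8800, against 30 and 34 with DMSO, and the next downstream one, 15, had none in any of the 4. Of 16 tested SETD1B introns 3 rose and 5 fell, but 3 of the 5 that fell (introns 2, 3 and 15) had no intronic read in any of the 4 libraries. Among the rises, intron 9, which overlaps another annotated exon, had no spliced read in any of the 4. Its intronic reads were 204 and 235 with H3B-8800, against 42 and 67 with DMSO. Its intronic share was thus 100% in both groups, and its call rested on intronic reads alone. The spliced reads of intron 13 were 121 and 161 with H3B-8800, against 24 and 55 with DMSO. Intron 14 lay 7.47 above the rest of the gene on the log2 scale (adjusted p = 2.9e-13). That intron 13 lay below the rest (−1.92, adjusted p = 0.039) was lost without either drug library or the first vehicle library, at adjusted p between 0.158 and 0.248.

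In TMEM120B 5 of 7 tested introns had a higher ratio and 2 rose. Intron 3, described above, lay above the rest of the gene by 9.02 on the log2 scale (adjusted p = 1.1e-11). Intron 2 next to it had no intronic read in any of the 4 libraries and 38 and 55 spliced reads with H3B-8800, against 82 and 76 with DMSO. Intron 5 was largely intronic in both groups, with 23 and 32 intronic reads with H3B-8800 and 24 and 32 with DMSO, while its spliced reads were 0 and 0 with H3B-8800 against 11 and 13 with DMSO. Intron 9 rose on 2 and 6 intronic reads with H3B-8800, against 0 and 0 with DMSO, and its spliced reads were 3 and 3 with H3B-8800, against 53 and 71 with DMSO. Few spliced reads with the drug were thus seen well downstream of intron 3 too.

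AP3D1 had rises along its whole length, of unequal size. Of 28 tested introns 21 rose and 1 fell, and spliced reads were fewer with H3B-8800 in all the introns named here. Intron 5 of 29 had 559 and 723 intronic reads with H3B-8800, against 15 and 16 with DMSO, and intron 20 had 241 and 260 with H3B-8800, against 0 and 13 with DMSO. Between such introns lay others without retention: introns 13 and 21 had no intronic read in any of the 4 libraries, and intron 14 had 0 and 0 with H3B-8800, against 4 and 2 with DMSO. Intron 28, which overlaps another exon of the gene, fell to 0 and 0 intronic reads with H3B-8800, against 17 and 9 with DMSO.

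**Figure D3:**
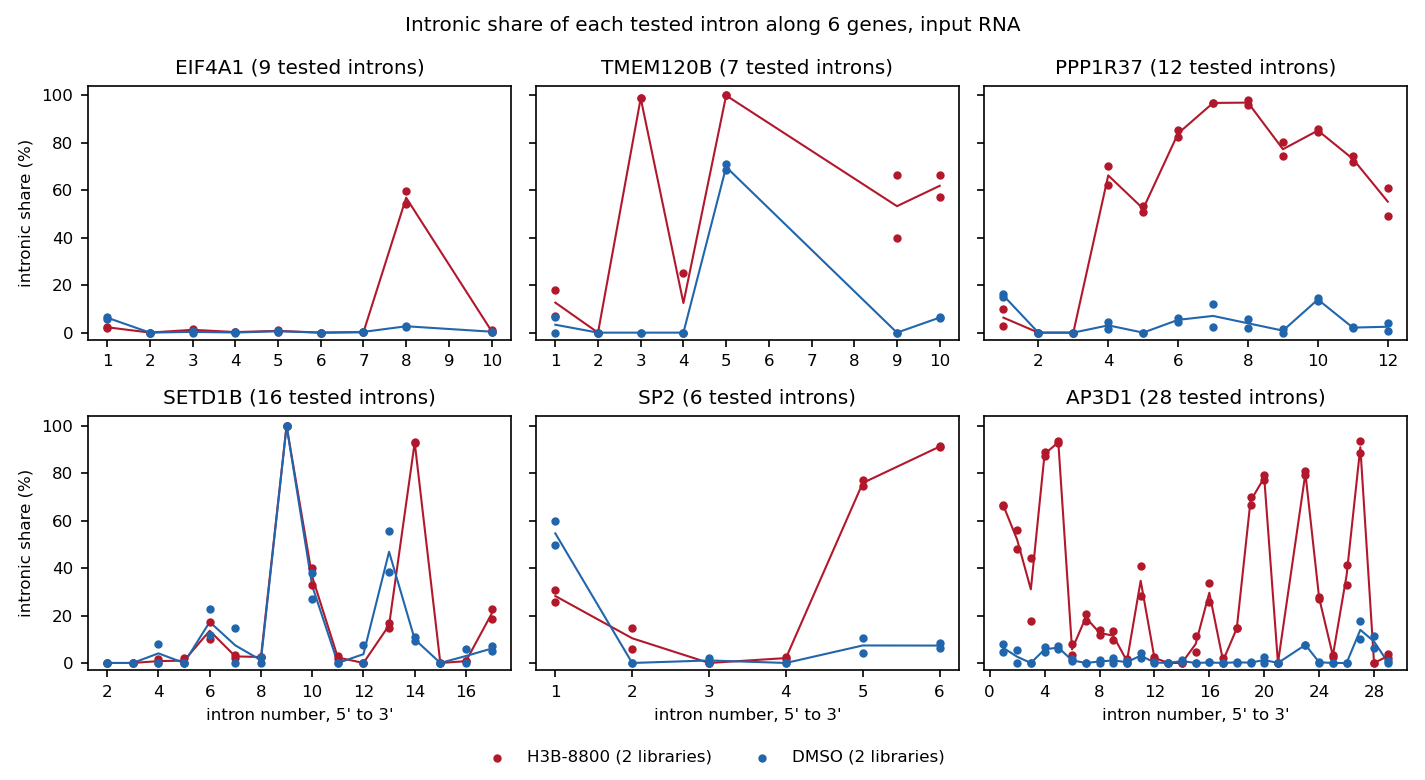
Intronic share (%, y) of each tested intron by its number (x) in 6 genes, with H3B-8800 in red and DMSO in blue; points are the 2 libraries of a group and lines join the group means. In EIF4A1 and SETD1B 1 intron rose far above its neighbours (56.9% and 93.0% with H3B-8800), whereas in PPP1R37 all introns from 4 to 12 did. SETD1B intron 9 had no spliced read and lay at 100% in both groups.

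PPP1R37, SP2, SETD1B, TMEM120B and AP3D1 above, and the genes named next, were picked for a wide gap between their introns. The gap in each gene was thus set by the choice. In CERK, ceramide kinase, intron 7 of 12 had 589 and 690 intronic reads with H3B-8800, against 2 and 8 with DMSO, while introns 2, 4 and 9 had none in any of the 4 libraries. In ADARB1, an RNA-editing adenosine deaminase, intron 10 of 12 had 64 and 56 intronic reads with H3B-8800, against 0 and 1 with DMSO, and intron 4, which overlaps another exon of the gene, fell to 6 and 11 with H3B-8800 against 59 and 49 with DMSO. SFSWAP, itself a splicing regulator, had 86 and 97 intronic reads in intron 8 of 18 with H3B-8800, against 0 and 0 with DMSO. TULP4, WDR70, GLTSCR1 and CABIN1 completed the 12 genes with the widest gaps of 1212 that passed, with 2, 2, 2 and 5 introns that rose of 10, 6, 14 and 30 tested. The introns at the low end in SFSWAP, TULP4, GLTSCR1, CERK and CABIN1 lost at least 1 call without 1 library, whereas those at the high end kept theirs. Only the introns at the high end had to pass the ratio test and agree between libraries. The choice of introns thus favoured this difference.

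The cytoplasmic dynein heavy chain gene DYNC1H1, chosen after its values were seen because it has 77 listed introns, gives the longest profile. Of 51 tested introns 17 rose, none fell, and 20 had no intronic read in either drug library. Intron 68 (chr14:102042508-102042634, 127 bases) had 204 and 187 intronic reads with H3B-8800, against 0 and 0 with DMSO, and 68 and 77 spliced reads with H3B-8800, against 166 and 185 with DMSO. Its downstream neighbour, intron 69 (1126 bases), had 0 and 0 intronic reads with H3B-8800, against 0 and 2 with DMSO, and 153 and 172 spliced reads with H3B-8800, against 166 and 167 with DMSO. Introns 40 and 48 (54.6% and 60.8% intronic with H3B-8800, against 0% in both with DMSO) were each followed by an intron with no intronic read in either drug library.

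Among genes whose splicing has served as a readout of SF3b inhibitors, 5 with tested introns are described here: EIF4A1, RIOK3, BCL2L1, DNAJB1 and CDKN1B. MCL1, BCL2L2, ABCC1 and BRD2 were not analysed here, and CCNE1 had too few reads. Of 18 tested introns in the 5 genes, 2 rose (11.1%, against 28.2% of all introns) and 2 fell. Those that rose were EIF4A1 intron 8 and RIOK3 intron 11. RIOK3, an atypical kinase, had 20 and 32 intronic reads in intron 11 with H3B-8800, against 6 and 2 with DMSO. BCL2L1, which encodes the apoptosis inhibitor BCL-XL and its short pro-apoptotic form, has 1 listed intron, with 39 and 43 intronic reads with H3B-8800, against 17 and 7 with DMSO. Its spliced reads were higher, 608 and 683 with H3B-8800 against 349 and 417 with DMSO, and its log2 ratio change of 1.05 (SE 0.53) did not pass the test (adjusted p = 0.15). DNAJB1, an HSP40 co-chaperone, did not pass either (−1.68, adjusted p = 0.13). Without the first vehicle library BCL2L1 passed (adjusted p = 0.0392), and without the second drug library DNAJB1 did (adjusted p = 0.0189). CDKN1B, the cell cycle inhibitor p27, fell on 0 and 0 intronic reads with H3B-8800 against 2 and 3 with DMSO, and lost the call without the second drug or the second vehicle library (adjusted p = 0.074 and 0.0817).

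U12-type introns are removed by the minor spliceosome, which also contains SF3b. Their 5′ ends are shown because the capitals, the first 8 bases, are what marked them.
ENTHD2 intron 2: GTATCCTTccttgatgtccc
LMBR1L intron 13: GTATCCTTctggaaacccat
UBL5 intron 4: GTATCCTTtgtgtgactttt
SMYD2 intron 9: ATATCCTTtacaactgccct
Of 22 tested introns that begin with ATATCCTT or GTATCCTT, 6 rose (27.3%) and 2 fell (9.09%), beside 46.8% and 1.24% of the 4360 other introns with sequence. No test of this difference was made. ENTHD2 intron 2 had 26 and 33 intronic reads with H3B-8800, against 1 and 9 with DMSO (log2 ratio change 4.05, SE 0.73, adjusted p = 0.005). Intron 9 of SMYD2, a lysine methyltransferase gene, fell to 0 and 0 intronic reads with H3B-8800, against 4 and 4 with DMSO. The rises of UBL5 and LMBR1L were lost without the first vehicle library (adjusted p = 0.158 and 0.0774) and without 1 of the drug libraries (0.162 and 0.0989). All 3 rises named were lost with median-of-ratios scaling (adjusted p between 0.0531 and 0.291), and the fall of SMYD2 in edgeR with spliced reads as offset (adjusted p = 0.118).

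Classes of introns were set side by side as descriptions, with no test. The share that rose was 36.4% of 3446 introns under 100 bases, 33.1% of 7666 introns of 100 to under 300 bases and 30.2% of 10719 introns of 300 to under 1000 bases. It was 27.7% at 1000 to under 5000 bases, 21.2% at 5000 to under 20000 bases and 7.56% of 1906 introns of 20000 bases or more. In that longest class 11.2% had a higher ratio, with or without more intronic reads, and 7.87% had a lower one. The median number of reads per intron was 88.2 in the shortest and 59.6 in the longest class, and the part of read number in these shares was not tested. Among introns free of other exons the shares that rose were 33.8% in the shortest and 7.96% in the longest class, where 7.78% had a lower ratio.

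By place among the listed introns of the gene, 34.1% of 5298 last introns rose, 28.8% of 33594 internal introns and 20.3% of 6573 first introns. The first listed intron is not always intron 1 of the transcript, as in RANGAP1, where it is intron 2 of 15. The order was the same among introns of 1000 to under 5000 bases, at 32.6% of last, 28.3% of internal and 19.97% of first introns. First introns had the larger median number of reads, 99.0 beside 68.5 in internal ones.

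Sequence classes could be drawn for 4382 tested introns that lie inside an exon of an annotated transcript. Of these, 46.7% rose, beside 26.2% of the 41672 others, with medians of 114 and 71.8 reads. Cut into 5 groups of about equal size by GC content, they rose in 21.8% of the group with the lowest content (up to 47.6%), and in 45.7%, 52.6%, 57.4% and 56.1% of the next groups. Median length was 436 bases in the lowest and 100 in the highest group, and median reads were 74.8 and 145, so these move with GC content and their part was not tested. By the C and T share before the 3′ end, 49.6% rose in the lowest group and 42.8% in the highest.

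**Figure D4:**
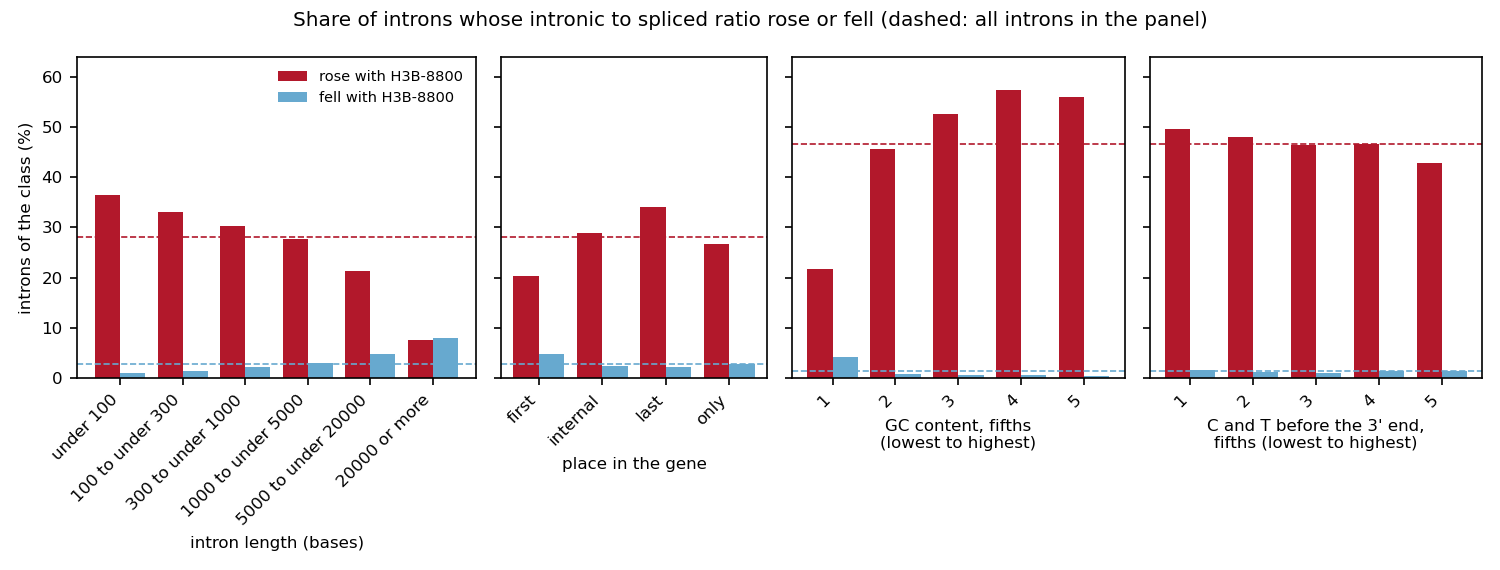
Percentage of tested introns that rose (red) or fell (light blue) with H3B-8800. The classes are intron length, place among the listed introns of the gene, GC content and C and T share. The C and T share is that of the 20 bases that end 4 bases before the 3′ end. Dashed lines give the same over all introns in the panel, and introns that fell include those with no intronic read. The share that rose was 36.4% in the shortest and 7.56% in the longest introns, and 21.8% in the lowest of the 5 groups by GC content.

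Local loss of splicing was looked for as neighbouring introns whose spliced reads both fell short of the whole gene (edgeR diffSpliceDGE). Introns with many reads weigh most in the change of the whole gene. Single introns were below the whole gene in 1891 of 41746 cases (4.53%) and above it in 1225 (2.93%). Both introns around an exon were below it in 537 of 30903 neighbouring pairs (1.74%), in 289 genes, and in 162 of these pairs (30.2%) both introns had under 5% intronic reads with H3B-8800, beside 43.4% of all pairs. The exon between them was a multiple of 3 bases in 40.0% of the 537 pairs and in 39.0% of all pairs. Of 4300 introns above the rest of their gene in ratio and tested here, 568 (13.2%) had spliced reads below the whole gene.

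The 8 pairs with the largest falls lay in GARS, SYMPK, CSNK2A1, GRIPAP1, CANX, HSP90AB1, CAST and NPC2. In CAST, the gene of the calpain inhibitor calpastatin, introns 25 and 26 had no intronic read in any of the 4 libraries. Spliced reads of intron 25 were 6 and 16 with H3B-8800, against 103 and 102 with DMSO, and those of intron 26 were 7 and 17 with H3B-8800, against 127 and 118 with DMSO. The loss reached beyond this exon, since spliced reads were called lower in 15 of the 18 CAST introns, among them all 9 from intron 21 on. The highest level in the gene, at CAST intron 19, averaged 5.72 RPM with H3B-8800 and 7.67 RPM with DMSO.

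GARS, glycyl-tRNA synthetase, came first by the smaller of the 2 falls against the whole gene (−2.30 on the log2 scale). By spliced reads themselves, introns 10 and 11 changed by −2.76 and −2.69, beside a median of −1.51 in the other GARS introns. Its intron 10 had 13 and 16 spliced reads with H3B-8800, against 91 and 116 with DMSO, and intron 11 had 17 and 18 with H3B-8800, against 93 and 144 with DMSO. These introns had 2 intronic reads in all with H3B-8800 and 2 with DMSO. Of the 16 GARS introns 12 were called lower in spliced reads with the drug, and introns at both ends of the gene were not called. Intron 1 averaged 23.1 RPM with H3B-8800 and 26.5 RPM with DMSO, over 10 times the level of intron 10 in both groups. At least 1 call of the pair was lost without either drug library or the second vehicle library (adjusted p between 0.0592 and 0.111) and with limma on log2 of spliced RPM + 1 (adjusted p = 0.146 and 0.0976).

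Unequal levels along a gene with DMSO alone were seen in other genes of this group too. In CANX, calnexin of the endoplasmic reticulum, intron 6 had 48 and 40 spliced reads with H3B-8800, against 203 and 204 with DMSO, while intron 11 averaged 52.2 RPM with H3B-8800 and 40.2 RPM with DMSO. In CSNK2A1, the alpha subunit of casein kinase 2, intron 7 had 34 and 23 with H3B-8800, against 81 and 82 with DMSO, while intron 13 averaged 52.0 RPM with H3B-8800 and 27.7 RPM with DMSO. Spliced reads of CSNK2A1, CANX, HSP90AB1 and NPC2 were lower at some introns and higher at others. HSP90AB1 and CSNK2A1 have near-identical intronless copies elsewhere in the genome, and the counting of reads shared with such copies is not stated, so their levels are uncertain. SYMPK introns 24 and 25 fell to between 2 and 13 spliced reads with H3B-8800, against 96 to 130 with DMSO, 7 introns downstream of the retained intron 17, and in GRIPAP1 all 23 tested introns had fewer spliced reads. The intronic shares of the GRIPAP1 pair were 78.4% and 80.8% with the drug, against 4.31% and 11.5% with DMSO, on few intronic reads. Intron 23 had 19 and 21 intronic reads with H3B-8800, against 8 and 7 with DMSO, and intron 24 had 23 and 26, against 30 and 15. Spliced reads of intron 23 were 10 and 2 with H3B-8800, against 151 and 188 with DMSO. Those of intron 24 were 9 and 3, against 165 and 183. Without the second drug library at least 1 call was lost in the pairs of CSNK2A1, GRIPAP1, HSP90AB1 and NPC2 (adjusted p between 0.0544 and 0.171), and without the first vehicle library in HSP90AB1 (0.061).

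**Figure D5:**
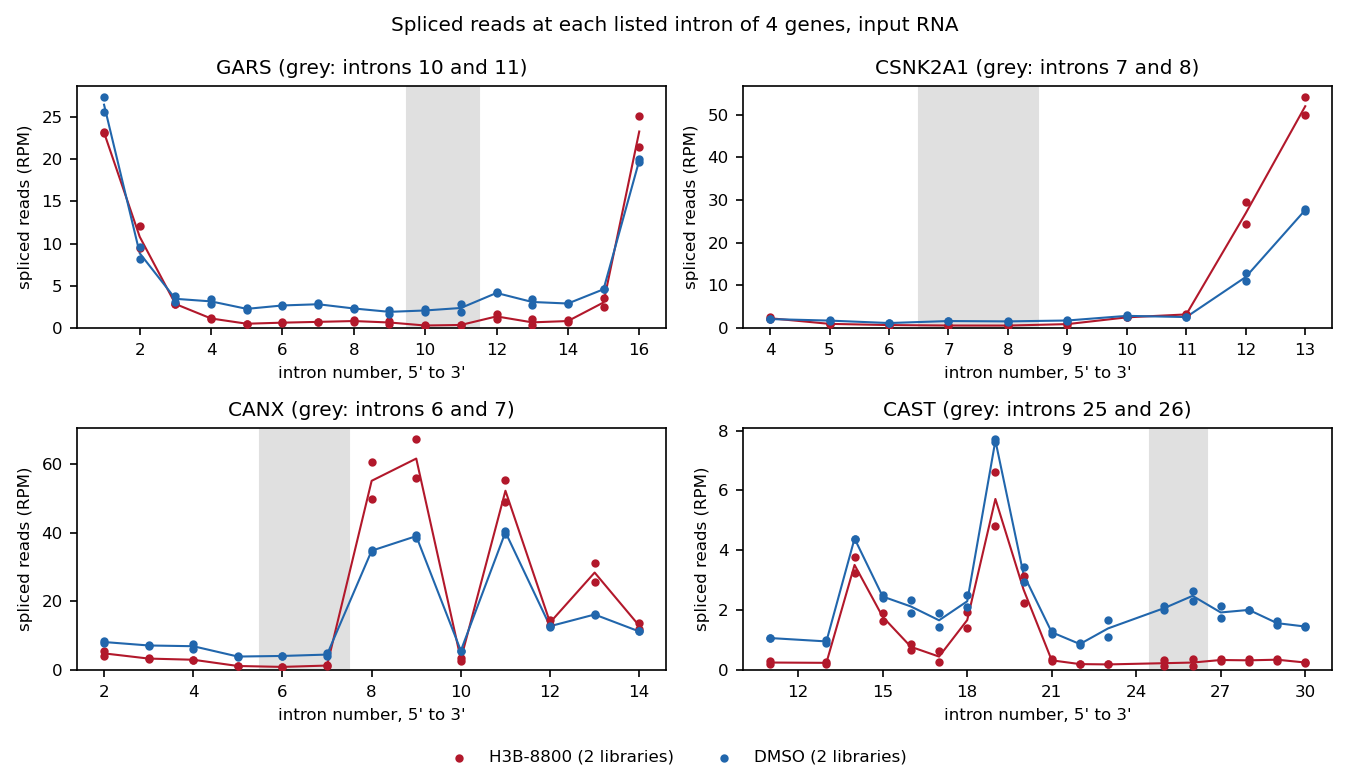
Spliced reads (RPM, y) at each listed intron by its number (x) in GARS, CSNK2A1, CANX and CAST, with H3B-8800 in red and DMSO in blue; points are the 2 libraries of a group, lines join the group means and grey marks the named pair. In all 4 genes the pair lay within a longer stretch of low spliced reads, and introns outside it were far higher, such as GARS intron 16 (21.4 and 25.2 RPM with H3B-8800) and CANX intron 9 (56.0 and 67.2 RPM with H3B-8800).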

How the data were processed

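Polyadenylated RNA went into a stranded kit for input and J2 libraries alike, per the labels' protocols. HISAT2 2.0.4 is named in the submitters' processing notes, with the builds hg38 and mm10, and the counting program is not given in the sources used here. The deposited files list 142224 introns of 15902 genes, 1 transcript a gene, with 2 whole-number counts and an RPKM per intron. The first deposited count was taken as intronic reads and the excess of the second over it as spliced reads, which no header states. The RPKM, computed by the authors from the first count and the intron length, implies depths of 47000000 and 48000000 reads with H3B-8800 and 48000000 and 51000000 with DMSO. Introns without the last values (18, of at most 9 bases) were left out. Of 138729 introns of 15509 genes linked to GENCODE 29 on GRCh38, 138297 matched. No genome was used, so intron sequence is given only where an annotated transcript spans the intron.

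All 8 libraries entered each fit as 4 group means, at an adjusted p (Benjamini-Hochberg) of 0.05. The log2 ratio of intronic reads + 1 to spliced reads + 1 was fitted with limma 3.58.1 for introns with a mean of at least 20 reads, and compared within genes with diffSplice. Intronic counts (mean of at least 10) and spliced counts (mean of at least 20) were fitted with the quasi-likelihood test of edgeR 4.0.16, with the depth above as library size, and spliced counts within genes with diffSpliceDGE. DESeq2 1.42.0 was an alternative. Each fit was tested on simulated data. Folds against 0 reads use a floor of 3 reads over the 2 libraries, and intervals (95%, exact) and floors cover counting error only. The smallest p of an exact permutation test with 2 libraries a group is 0.333, so library shares carry no test.

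Rising and falling introns named were the 12 and 8 with the largest ratio change and at least 50 reads on average, agreeing between libraries and free of other exons apart from annotated retained-intron transcripts. The 12 unequal genes had the widest gap in share change, the 8 pairs the largest joint fall and the 4 U12-type introns the largest change. Members, lists and tests were chosen with earlier results of these data known, and the condition on intronic reads for a rise was added after seeing the data. Replicate numbers did not pair the libraries. Some results are not reported here.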

Additional observations from a re-analysis of the deposited data

How the results depend on the processing

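None of the 92 named results changed direction under any setting run: of 1118 values, 1040 kept their call, 67 lost it and 11 gained it, the lost ones in 27 results. Counts of introns moved more. For the intron ratio (18492 higher, 1263 lower), median-of-ratios scaling gave 8905 and 4318, edgeR with spliced reads as offset 11416 and 314, and also asking for a mean of 10 intronic reads 7138 and 251. Leaving out 1 library gave 12688 to 14633 higher and 657 to 850 lower.

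Within genes (4893 above and 3737 below the rest, 3417 genes), the mean of 10 intronic reads left 1634, 1600 and 1379, and edgeR diffSpliceDGE on intronic reads gave 1876, 1360 and 1660. Leaving out 1 library gave 3080 to 3517 above and 1962 to 2266 below, and introns free of other exons gave 2357 below. For intronic reads (6908 higher, 737 lower) TMM gave 3847 and 2819, median-of-ratios size factors 4144 and 2525, and DESeq2 3541 and 2203. For spliced reads (7844 higher, 21173 lower) TMM gave 14404 and 13738, median-of-ratios size factors 14547 and 13588, DESeq2 12201 and 11103, and no filter 32580 lower. Within-gene spliced reads (1225 higher, 1891 lower) gave 2104 and 3089 with the 4 input libraries only, 3416 and 3355 with limma diffSplice on log2 spliced RPM + 1, 1104 lower with a mean of 50 spliced reads, and 342 to 616 higher and 628 to 925 lower without 1 library. The causes were not tested, beyond the smaller number of introns or libraries.

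Introns free of other exons put the intronic share of the library at 8.44% with H3B-8800 and 1.67% with DMSO, against 11.6% and 3.82% over all introns, and without the 63 introns that differed between the drug libraries it was 10.04% and 3.70%. A replicate block changed no count by over 1.5 times (17929 higher and 1125 lower for the ratio), and the replicate numbers did not pair the libraries. Over introns, the difference in log2 ratio between replicates 1 and 2 with H3B-8800 had a correlation of 0.00413 with the same difference with DMSO. Settings on at least 10 intronic reads and on rises with more intronic reads were chosen after seeing the data. The 2 libraries a group, and the 20 reads an intron needs, limit what could be called.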
